A study of Homo sapiens with 15 samples.

Results

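Hypoxia and glycolysis genes are 40 named genes that either carry out or steer the breakdown of glucose to lactate, sense oxygen, or are known to be induced when oxygen is low. They are taken as a list of names, and 37 of the 40 were measured among the 18377 genes of the array, each by 1 array feature. SLC16A3, a lactate exporter, and CA9, a carbonic anhydrase, were not analysed here. PGAM1, a phosphoglycerate mutase, was left out because its features carried several gene symbols. The measured genes comprised 2 glucose transporters, 16 glycolytic enzymes and lactate dehydrogenase subunits, 4 kinases that steer glycolytic flux, 4 genes of the hypoxia-inducible factor (HIF) alpha subunits and their prolyl hydroxylases, 2 mitophagy receptors, 3 secreted factors and carbonic anhydrases, and 6 other hypoxia-induced genes.

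The study transfected a microRNA mimic, a double-stranded RNA that stands in for a mature microRNA, into 2 human prostate cancer cell lines. PC3 derives from a bone metastasis and DU145 from a brain metastasis. Each line was given the miR-224 mimic, the miR-452 mimic or a scrambled mimic with no intended target, each at 20 nM with Lipofectamine 2000, or was left untransfected. The medium of transfected cells was changed at 6 h, and RNA was taken at 48 h from cells grown in RPMI 1640 with 10% fetal calf serum. PC3 had 2 arrays per group. DU145 had 2 arrays per group except for 1 array of the scrambled mimic, the other having been left out by the authors for bad performance. Untransfected cells received neither mimic nor transfection reagent as far as the labels say, so they differ from the scrambled group by both. The labels do not say that the arrays of a group came from separate cultures, so p-values measure the spread between these arrays, which may be technical.

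Glycolysis turns glucose into pyruvate in the cytosol, and lactate dehydrogenase then makes lactate from it. When oxygen is low, HIF1A and EPAS1 (HIF-2 alpha) escape hydroxylation by the EGLN enzymes, pair with ARNT, and bind promoters and enhancers at a short motif known as the hypoxia response element, which raises transcription of many glycolytic genes, of PDK1 and of BNIP3. Tumour cells often run this programme with oxygen present, and a microRNA lowers the messages whose untranslated regions pair with its seed.

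The mature sequences are shown because the seed, given in capitals at bases 2 to 8, is what distinguishes the mimics from each other. Both microRNA genes lie on the X chromosome, on the minus strand, and the labels do not say which arm each mimic represents, so both arms are given. The sequences and coordinates are from RefSeq, build GRCh38.p14.
hsa-miR-224-5p, chrX:151958628-151958652: uCAAGUCAcuagugguuccguuuag
hsa-miR-224-3p, chrX:151958584-151958606: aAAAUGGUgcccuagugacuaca
hsa-miR-452-5p, chrX:151959678-151959699: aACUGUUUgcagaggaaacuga
hsa-miR-452-3p, chrX:151959634-151959655: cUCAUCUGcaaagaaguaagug
No 2 of these 4 seeds are the same.

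Promoters are shown for some of the genes that the results below turn on, chosen with earlier results of these data known. The motif marked was ACGTG on both strands, 1 form of the core of the hypoxia response element, and capitals mark each match. A CACGTG holds the motif on both strands and counts as 2 matches that overlap. Each stretch runs from 250 bases before to 50 bases after the RefSeq start of the gene, 5′ to 3′ along the gene's own strand, build GRCh38.p14. PDK1 and PDK3 both encode pyruvate dehydrogenase kinases.
PDK1, chr2:172555123-172555422, plus strand: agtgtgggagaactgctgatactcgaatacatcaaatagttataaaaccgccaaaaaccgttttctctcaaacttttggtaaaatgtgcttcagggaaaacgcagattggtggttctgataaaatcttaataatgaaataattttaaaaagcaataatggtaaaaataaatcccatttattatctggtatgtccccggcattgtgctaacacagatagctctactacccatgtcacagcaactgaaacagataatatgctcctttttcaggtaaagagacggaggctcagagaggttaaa
PDK3, chrX:24465036-24465335, plus strand: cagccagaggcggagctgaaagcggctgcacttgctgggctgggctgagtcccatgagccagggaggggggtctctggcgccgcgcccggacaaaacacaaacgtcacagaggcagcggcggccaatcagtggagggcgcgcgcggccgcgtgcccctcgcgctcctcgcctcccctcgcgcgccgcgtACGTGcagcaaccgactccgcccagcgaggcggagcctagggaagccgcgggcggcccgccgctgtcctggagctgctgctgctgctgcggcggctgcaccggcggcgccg
ALDOC, chr17:28576846-28577145, minus strand: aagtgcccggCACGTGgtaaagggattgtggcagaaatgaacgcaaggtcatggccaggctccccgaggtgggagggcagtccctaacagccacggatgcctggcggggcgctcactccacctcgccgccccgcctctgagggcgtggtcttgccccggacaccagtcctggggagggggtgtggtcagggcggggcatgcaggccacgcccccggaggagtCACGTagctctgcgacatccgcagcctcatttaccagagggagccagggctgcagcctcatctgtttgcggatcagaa
PGK1, chrX:78103998-78104297, plus strand: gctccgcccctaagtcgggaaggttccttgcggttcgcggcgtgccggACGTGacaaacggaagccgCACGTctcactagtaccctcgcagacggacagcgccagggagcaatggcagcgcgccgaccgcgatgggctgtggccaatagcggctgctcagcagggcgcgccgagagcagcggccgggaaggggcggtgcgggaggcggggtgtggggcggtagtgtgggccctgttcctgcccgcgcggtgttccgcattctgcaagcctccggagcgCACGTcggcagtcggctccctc
BNIP3, chr10:131981874-131982173, minus strand: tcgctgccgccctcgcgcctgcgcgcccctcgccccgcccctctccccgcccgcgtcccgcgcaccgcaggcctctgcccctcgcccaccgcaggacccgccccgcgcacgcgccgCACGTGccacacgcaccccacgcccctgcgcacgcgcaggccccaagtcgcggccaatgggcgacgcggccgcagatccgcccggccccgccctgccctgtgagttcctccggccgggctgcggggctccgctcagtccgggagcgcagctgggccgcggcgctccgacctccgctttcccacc
PDK1 had no match in this window, PDK3 had 1, ALDOC and PGK1 had 3 each, and BNIP3 had 2. Of the other genes that fell against the scrambled mimic, EPAS1, TPI1, PFKFB3, PFKFB4 and PFKP had no match and ENO2 had 1. No promoter was available for NDRG1. Of the measured genes of the programme, 33 had a promoter in the table, and 14 of those (42.4%) held ACGTG, against 3415 of 14210 (24.0%) over all measured genes with a promoter. The other form of the core, GCGTG, was counted but is not marked. It was in 19 of the 33 (57.6%), against 44.7% of all. Either form was in 26 of the 33 (78.8%), against 56.7% of all. For some of the counted genes, GPI and GAPDH among them, the window lies around a position within the gene rather than its outermost RefSeq start. A match describes these letters and says nothing of binding.

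Values are log2 levels after the authors' normalization, in which the arrays of each line were handled separately. A change is the difference of 2 group means on that log2 scale, so a change of 1 is a doubling. Changes were tested with limma over all 18377 genes of a line, and a gene was called ("passed") where its p, adjusted by Benjamini and Hochberg, was under 0.05. "Rose" and "fell" are used of genes that passed. Replicate arrays correlated at r = 0.9916 to 0.9978 over all features, and the 37 genes differed between replicate arrays of a group by a median of 0.04 to 0.12, with a largest gap of 0.41. Identity of the lines was checked on markers: KRT8 and KRT18, keratins of simple epithelium, lay between 10.67 and 12.17 on all 15 arrays, and 2 further epithelial genes were lower, with CDH1 (E-cadherin) at 6.73 to 7.30 in PC3 and 8.38 to 8.93 in DU145 and EPCAM at 6.85 to 9.01 in PC3 and 7.27 to 9.07 in DU145. CTNNA1 (alpha-catenin), known to be lost in PC3, lay at 5.53 to 5.61 in PC3 and 9.92 to 10.27 in DU145. The leukocyte marker PTPRC lay between 5.00 and 5.31 on all arrays, near the lowest values of any array (4.49 to 4.51). The leukocyte genes CD3E and CD14 lay higher, at 5.50 to 5.91 and 6.16 to 6.66 over all arrays. The prostate genes KLK3 and KLK2 lay at 6.32 to 6.62 and 6.44 to 6.82 in PC3, and at 5.59 to 6.17 and 5.98 to 6.54 in DU145. KDR, a receptor of endothelial cells, reached 8.56 to 9.42 in PC3, while the endothelial genes CDH5, PECAM1 and VWF lay between 5.90 and 6.43 there. Of the fibroblast genes, COL1A1 lay at 8.25 to 8.63 in PC3, where COL1A2, DCN and LUM lay between 4.88 and 7.15. In bulk RNA, fewer cells that express a gene and less RNA per cell cannot be told apart. Several glycolytic enzyme genes have processed pseudogenes, and how far their probes match such copies is not given in the sources used here.

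In untransfected cells 29 of the 37 genes stood higher in PC3 than in DU145, where 83.5% of all genes did, with a median PC3 minus DU145 difference of 0.54, against 0.41 over all genes. Because the lines were normalized apart, these level differences are a description with no test. The 9 genes that stood more than 1 log2 unit higher in PC3, as 15.4% of all genes did, included ALDOC (8.87 and 6.67), P4HA1 (11.11 and 9.03), CA12 (9.23 and 7.30), HK1 (9.33 and 7.45) and NDRG1 (11.05 and 9.30; group means, PC3 then DU145, n = 2 each). VEGFA, the angiogenic growth factor, was the only 1 of the 37 more than 1 unit lower in PC3, as 2.16% of all genes were. It stood at 8.77 against 9.82 in DU145.

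With the miR-224 mimic in PC3, 9 of the 37 genes fell and none rose against the scrambled mimic. The genes that fell were all 4 flux-steering kinases (PFKFB3, PFKFB4, PDK1 and PDK3), 3 glycolytic enzymes (ALDOC, TPI1 and ENO2), the HIF alpha subunit EPAS1, and NDRG1. Over all genes 4.65% fell and 12.1% rose in this comparison, so the share of falls among the 37 lay above the background and the share of rises below it. The median change of the 37 was −0.18, against −0.01 over all genes, and 28 of the 37 lay below 0, against 53.5% of all genes. At an unadjusted p under 0.05, 16 were lower and 1 higher, but the share of all genes at that threshold was not counted.

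With the miR-452 mimic in PC3, 7 of the 37 genes fell and none rose against the same scrambled arrays: ALDOC, PGK1, ENO2 and PFKP among the enzymes, the kinases PFKFB4 and PDK3, and the mitophagy receptor BNIP3. Over all genes 2.33% fell and 2.89% rose. The median change of the 37 was −0.13, against 0.01 over all genes, and 35 of the 37 lay below 0, against 48.2% of all genes. At an unadjusted p under 0.05, 12 were lower and none higher, again with no share of all genes counted.

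In DU145 fewer genes passed against the single scrambled array. With the miR-224 mimic 3 fell, PFKFB3, PDK1 and PDK3, and none rose, where 1.31% of all genes fell and 0.631% rose. With the miR-452 mimic only PDK3 fell and none rose, where 1.52% of all genes fell and 0.577% rose. The medians of the 37 were −0.06 with miR-224, against −0.01 over all genes, and −0.17 with miR-452, against −0.02 over all genes. At an unadjusted p under 0.05 the miR-224 mimic had 3 lower and 2 higher, and the miR-452 mimic had 11 lower and 1 higher. The shares of all genes at that threshold were not counted, so these counts have no background. The 3 genes that fell in DU145 with miR-224 were all among the 9 that fell in PC3, and PDK3 fell with both mimics in both lines. Comparisons of both mimics share the scrambled arrays, or the untransfected arrays, of their line, so their changes are not independent of each other.

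**Figure D1:**
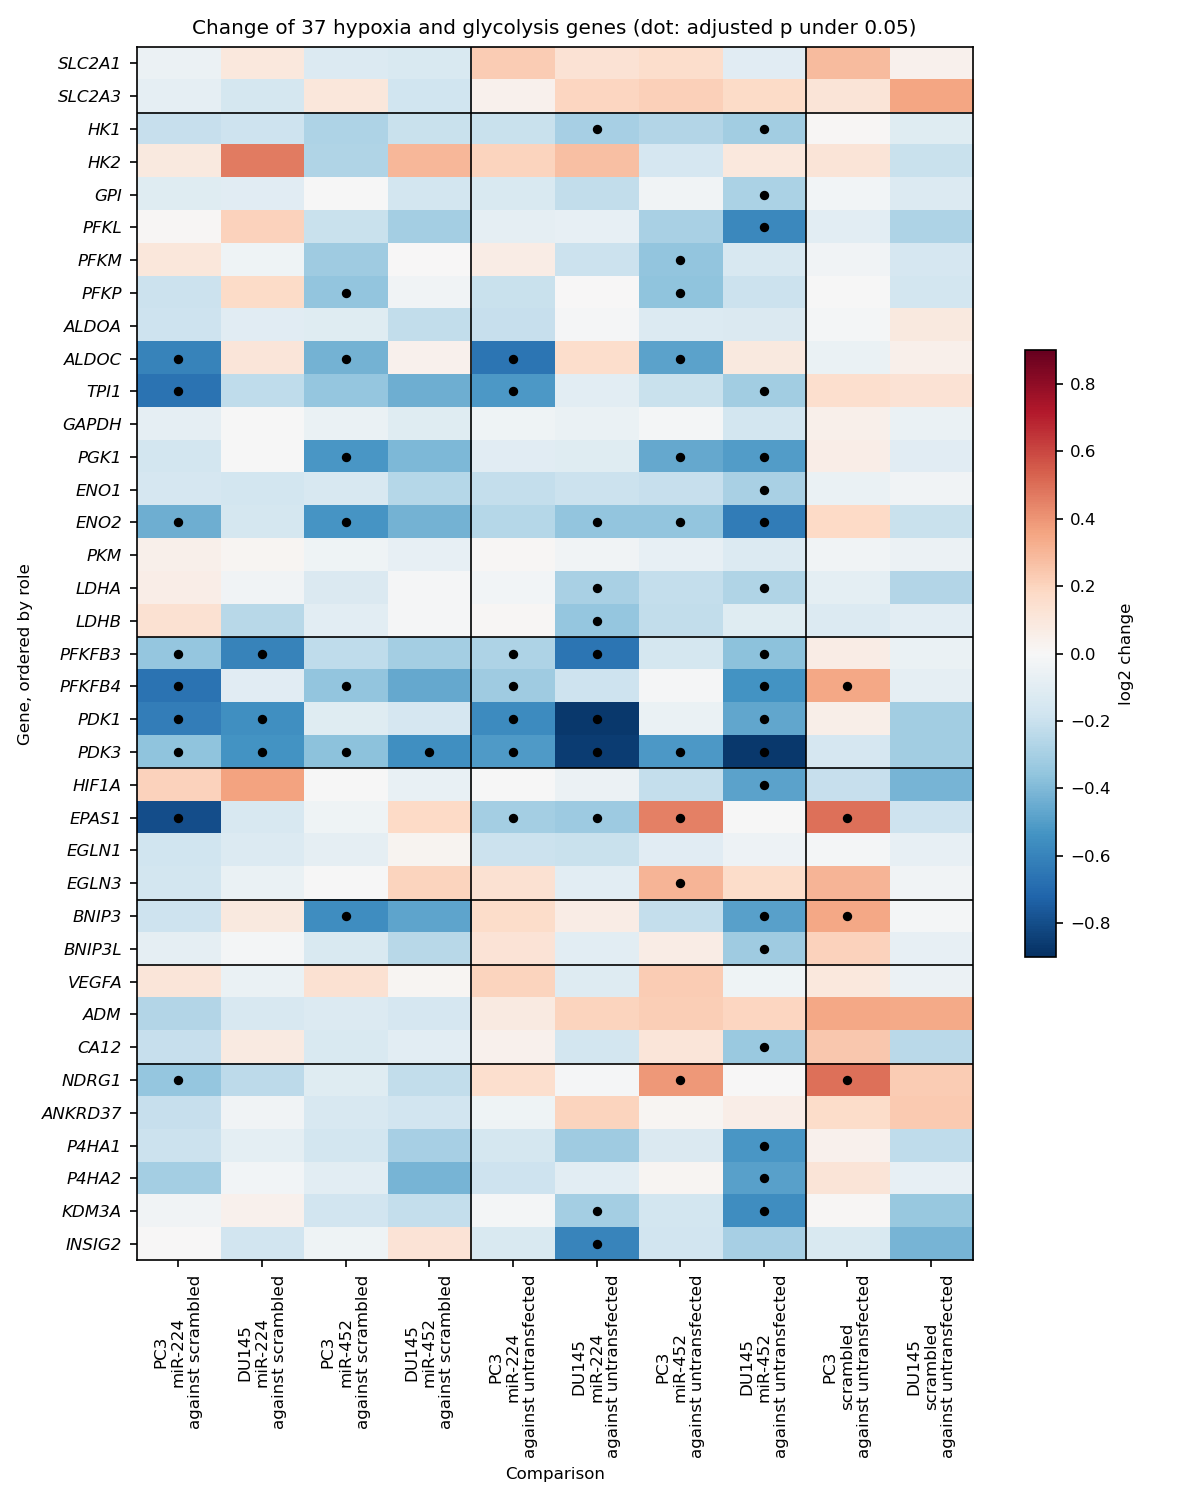
Colour gives the log2 change of each of the 37 measured genes (rows, grouped by role between the black lines) in 10 comparisons (columns), and a dot marks an adjusted p under 0.05. The kinase rows PFKFB3 to PDK3 are blue with dots for miR-224 in both lines except PFKFB4 in DU145, while the glucose transporter rows at the top hold no dot.

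Some of these genes also changed between the 2 controls, so each mimic was also set against untransfected cells. In PC3, scrambled against untransfected gave 4 rises among the 37 (BNIP3, EPAS1, NDRG1 and PFKFB4) and no fall, where 3.32% of all genes rose and 10.9% fell. Without untransfected array b none of the 4 passed, and without scrambled array c BNIP3 and PFKFB4 did not (adjusted p = 0.0702 to 0.157). In DU145, none of the 37 passed for scrambled against untransfected by limma, where 2.6% of all genes rose and 9.22% fell. At an unadjusted p under 0.05, 1 was higher and 8 were lower in that DU145 comparison, with no share of all genes counted. Without miR-452 array a, and likewise without miR-452 array c, 1 of the 37 rose and 6 fell there, where 11.7% of all genes rose and 19% fell, so these counts lay at or below the background.

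Against untransfected PC3 cells, 7 genes fell with miR-224 and none rose (6.85% of all genes fell, 2.84% rose). All 7 were among the 9 that fell against the scrambled mimic, namely ALDOC, TPI1, EPAS1 and the 4 kinases. With miR-452 in PC3, 6 fell (ALDOC, ENO2, PFKM, PFKP, PGK1 and PDK3) and 3 rose (EPAS1, EGLN3 and NDRG1), where 14.1% of all genes fell and 8.12% rose, and 5 of the 6 had also fallen against the scrambled mimic. In DU145, 10 fell and none rose with miR-224 (15.5% of all genes fell, 5.44% rose), and 19 fell and none rose with miR-452 (19.9% of all genes fell, 8.31% rose).

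Against untransfected cells the change depended on level across the whole array. In DU145 the median change of genes at or above percentile 75 of mean level was −0.15 with miR-224, −0.21 with miR-452 and −0.17 with the scrambled mimic, while for genes under percentile 25 it was 0.12, 0.13 and 0.11. In PC3 the higher class moved by −0.04, −0.12 and −0.13 and the lower class by 0.05, 0.12 and 0.09, in the same order. Of the 37 genes, 22 lay in the higher class in DU145 and 27 in PC3. The part of this shift in the counts against untransfected cells was not tested. With quantile normalization of the deposited values within each line, 8 rather than 19 genes fell with miR-452 in DU145 (7.43% of all genes), and 5 fell and 2 rose rather than 10 and 0 with miR-224 (8.46% and 5.45% of all genes). In PC3 with miR-452, 3 fell and 6 rose rather than 6 and 3 (9.37% and 7.9% of all genes). Against the scrambled mimic in PC3, the same step gave 17 falls with miR-224 (8.1% of all genes) and 7 with miR-452 (3.46% of all genes).

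Glucose enters through SLC2A1 and SLC2A3 (GLUT1 and GLUT3), and neither passed in the main fits (deposited values, no array left out) of the 14 comparisons. SLC2A1 lay between 10.07 and 10.45 on the PC3 arrays and between 10.81 and 11.09 on the DU145 arrays. SLC2A3 was at 6.15 to 6.49 in PC3 and 5.96 to 6.34 in DU145. Across the 37 genes, 9 passed in no main fit: these 2 transporters, ALDOA, GAPDH, PKM, EGLN1, VEGFA, ADM and ANKRD37. Their changes in the 12 comparisons within a line ran from −0.26 to 0.35. After quantile normalization SLC2A1, VEGFA and ADM rose with miR-452 against untransfected PC3 cells, and SLC2A1 also with miR-224. With that step ALDOA, ADM and EGLN1 fell with miR-224 against scrambled in PC3.

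Among the enzymes, aldolase C (ALDOC), one of the isoforms that split fructose bisphosphate, fell with both mimics in PC3. In PC3 ALDOC stood at 8.26 and 8.17 with miR-224, 8.35 and 8.43 with miR-452, 8.89 and 8.74 with the scrambled mimic, and 8.87 and 8.88 in untransfected cells. Every mimic array lay below every control array. The change against the scrambled mimic was −0.60 ± 0.08 (SE) with miR-224 (adjusted p = 0.000805) and −0.43 ± 0.08 with miR-452 (adjusted p = 0.0122). Against untransfected cells it was −0.66 and −0.48 (adjusted p = 0.000713 and 0.00305). The miR-452 call against the scrambled mimic was lost without scrambled array b or miR-452 array b (adjusted p = 0.0833 and 0.0956), and the other 3 were kept without any 1 array. In DU145 ALDOC lay at 6.89 and 6.77 with miR-224, 6.89 and 6.62 with miR-452, 6.72 with the scrambled mimic, and 6.66 and 6.69 in untransfected cells, and it passed in no comparison there. These levels were near the medians of the DU145 arrays over all features (6.51 to 6.67). Whether a fall could be seen at that level was not tested.

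Triosephosphate isomerase (TPI1), which interconverts the triose phosphates, fell with miR-224 in PC3. In PC3 TPI1 stood at 10.31 and 10.26 with miR-224, 10.55 and 10.64 with miR-452, 11.15 and 10.75 with the scrambled mimic, and 10.67 and 10.93 in untransfected cells. The miR-224 arrays lay below all 6 others, and the scrambled arrays differed from each other by 0.40, the widest gap of TPI1 within a group. The change with miR-224 was −0.66 ± 0.125 against scrambled (adjusted p = 0.00415, at most 0.0325 without any 1 array) and −0.51 against untransfected cells (adjusted p = 0.0248). The call against untransfected cells was lost without either untransfected or either miR-224 array (adjusted p = 0.0502 to 0.164). With miR-452, TPI1 fell in DU145 against untransfected cells by 0.31, and that call was lost without either untransfected array or miR-452 array a (adjusted p = 0.111 to 0.238).

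Enolase 2 (ENO2), the gamma enolase, fell with both mimics against the scrambled mimic in PC3. In PC3 ENO2 stood at 9.05 and 8.98 with miR-224, 9.01 and 8.83 with miR-452, 9.57 and 9.34 with the scrambled mimic, and 9.25 and 9.30 in untransfected cells. All 4 mimic arrays lay below all 4 control arrays, but against untransfected PC3 cells ENO2 passed only with miR-452. Group means were 9.02 with miR-224, 8.92 with miR-452 and 9.27 in untransfected cells. That miR-452 call was lost without either untransfected array or miR-452 array c, and after quantile normalization. The change against scrambled was −0.44 ± 0.10 with miR-224 (adjusted p = 0.00947) and −0.53 ± 0.10 with miR-452 (adjusted p = 0.00777). Both calls were lost without scrambled array b, the first also without miR-224 array b and the second without miR-452 array c (adjusted p = 0.0581 to 0.0854). In DU145 all 4 mimic arrays again lay below the 3 control arrays, with ENO2 at 7.75 and 7.80 with miR-224, 7.47 and 7.54 with miR-452, 7.93 with the scrambled mimic, and 8.15 and 8.11 in untransfected cells. There it fell against untransfected cells by 0.36 with miR-224 and by 0.63 with miR-452, the miR-452 call being kept without any 1 array and the miR-224 call lost without any untransfected or miR-224 array (adjusted p = 0.0808 to 0.161).

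Phosphoglycerate kinase 1 (PGK1), which makes the first ATP of the pathway, fell with miR-452. In PC3 PGK1 stood at 11.89 and 11.91 with miR-224, 11.58 and 11.50 with miR-452, 12.12 and 11.9998 with the scrambled mimic, and 12.02 and 11.98 in untransfected cells. The miR-452 arrays lay lowest and overlapped no other group. Its change with miR-452 was −0.52 ± 0.08 against scrambled (adjusted p = 0.00271) and −0.46 against untransfected cells (adjusted p = 0.00306), both kept without any 1 array. In DU145 PGK1 stood at 10.22 and 10.26 with miR-224, 9.73 and 9.95 with miR-452, 10.25 with the scrambled mimic, and 10.34 and 10.36 in untransfected cells. It fell there against untransfected cells by 0.51 (adjusted p = 0.00766, and 0.0617 to 0.0685 without either untransfected array). The platelet phosphofructokinase PFKP stood in PC3 at 8.96 and 9.01 with miR-224, 8.91 and 8.73 with miR-452, 9.26 and 9.10 with the scrambled mimic, and 9.18 and 9.19 in untransfected cells. Its fall of 0.36 with miR-452 against scrambled was lost without any PC3 array other than scrambled array c (adjusted p = 0.0393 with all arrays and 0.0537 to 0.268 without those).

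The remaining enzymes include the housekeeping reference GAPDH (13.31 to 13.48 in PC3 and 13.34 to 13.52 in DU145), pyruvate kinase PKM and aldolase A, none of which passed in a main fit. ENO1, GPI and PFKL fell with miR-452 against untransfected DU145 cells (group means 12.13 against 12.42, 11.35 against 11.64 and 7.78 against 8.36). The ENO1 and GPI calls were lost without either untransfected array, and the PFKL call without untransfected array b. Lactate dehydrogenase A fell in DU145 against untransfected cells with both mimics, by 0.29 with miR-224 and 0.27 with miR-452, and lactate dehydrogenase B with miR-224 by 0.35. The lactate dehydrogenase calls were lost without either untransfected DU145 array (adjusted p up to 0.273). The hexokinase HK1, which traps glucose in the cell, fell against untransfected DU145 cells by 0.30 with miR-224 and 0.31 with miR-452, and that was lost without either untransfected array as well (adjusted p up to 0.238).

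The 4 kinases were the only role group of which every measured member fell in a comparison with the scrambled mimic. The groups were set with earlier results of these data known. The related kinases PFKFB1, PFKFB2, PDK2 and PDK4 stood in the further lists below, and PDK4 rose with miR-224 against scrambled in PC3 (0.58). PFKFB3 and PFKFB4 set the level of fructose 2,6-bisphosphate, the activator of phosphofructokinase. PDK1 and PDK3 phosphorylate and switch off pyruvate dehydrogenase, which keeps pyruvate from feeding the citrate cycle through that enzyme. With miR-224 in PC3 all 4 fell against both controls, and in DU145 3 of 4 did. With miR-452 against scrambled, 2 of 4 fell in PC3 (PFKFB4 and PDK3) and 1 of 4 in DU145 (PDK3). Against untransfected cells, 1 of 4 fell with miR-452 in PC3 (PDK3) and all 4 did in DU145.

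In PC3 PDK1 stood at 9.35 and 9.24 with miR-224, 9.80 and 9.80 with miR-452, 9.90 and 9.92 with the scrambled mimic, and 9.90 and 9.82 in untransfected cells. In DU145 PDK1 stood at 8.09 and 8.05 with miR-224, 8.40 and 8.53 with miR-452, 8.62 with the scrambled mimic, and 8.96 and 8.90 in untransfected cells. In both lines the miR-224 arrays lay below all others. The miR-224 change against scrambled was −0.62 ± 0.08 in PC3 (adjusted p = 0.000462, at most 0.00816 without any 1 array) and −0.55 ± 0.11 in DU145 (adjusted p = 0.0347, and 0.0981 to 0.166 without either untransfected or either miR-224 array). With untransfected cells as the control it was −0.57 in PC3 and −0.86 in DU145 (adjusted p = 0.00118 and 0.000673), both kept without any 1 array. In DU145 PDK1 also fell with miR-452 against untransfected cells, by 0.46, a call lost without either untransfected array (adjusted p = 0.0585 to 0.0842) and after quantile normalization.

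PDK3 was the gene that fell with both mimics, in both lines and against both controls. In PC3 PDK3 stood at 7.93 and 7.96 with miR-224, 7.98 and 7.89 with miR-452, 8.36 and 8.25 with the scrambled mimic, and 8.55 and 8.36 in untransfected cells. In DU145 PDK3 stood at 7.06 and 7.15 with miR-224, 7.06 and 7.12 with miR-452, 7.64 with the scrambled mimic, and 7.91 and 8.0 in untransfected cells. The arrays of both mimics overlapped each other and lay below every control array in each line. The change against scrambled was −0.36 ± 0.09 with miR-224 and −0.37 ± 0.09 with miR-452 in PC3 (adjusted p = 0.0173 and 0.0352), and −0.54 ± 0.11 and −0.55 ± 0.11 in DU145 (adjusted p = 0.0363 and 0.0337). These 4 calls were each lost without some arrays, in PC3 without scrambled array b or either miR-224 array for both mimics (adjusted p = 0.0537 to 0.206) and without either miR-452 array for miR-452, and in DU145 without either untransfected or either miR-224 array (adjusted p = 0.0586 to 0.209). Against untransfected cells the change was −0.51 and −0.52 in PC3 and −0.85 and −0.87 in DU145, miR-224 first. Of these, the calls in DU145 and that of miR-452 in PC3 were kept without any 1 array, and that of miR-224 in PC3 was lost without untransfected array b (adjusted p = 0.0573).

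In PC3 PFKFB3 stood at 8.43 and 8.46 with miR-224, 8.64 and 8.50 with miR-452, 8.78 and 8.81 with the scrambled mimic, and 8.71 and 8.75 in untransfected cells. In DU145 PFKFB3 stood at 8.48 and 8.46 with miR-224, 8.66 and 8.87 with miR-452, 9.07 with the scrambled mimic, and 9.13 and 9.13 in untransfected cells. The miR-224 arrays were the lowest in each line, and the miR-452 arrays lay between them and the controls. PFKFB3 also fell with miR-452 against untransfected DU145 cells, by 0.37. That call was lost without either untransfected array or miR-452 array a, and after quantile normalization. The miR-224 change against scrambled was −0.35 ± 0.08 in PC3 (adjusted p = 0.0107, and 0.0530 to 0.0721 without scrambled array c or either miR-224 array) and −0.60 ± 0.12 in DU145 (adjusted p = 0.0347, and 0.0883 to 0.155 without either untransfected or either miR-224 array). Against untransfected DU145 cells it was −0.66 (adjusted p = 0.00287) and was kept without any 1 array. Against untransfected PC3 cells it was −0.28 (adjusted p = 0.0461, and 0.134 to 0.201 without either untransfected or either miR-224 array), and it did not pass after quantile normalization.

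PFKFB4 was among the genes that rose with the scrambled mimic in PC3. In PC3 PFKFB4 stood at 8.29 and 8.12 with miR-224, 8.53 and 8.50 with miR-452, 8.88 and 8.86 with the scrambled mimic, and 8.53 and 8.52 in untransfected cells. The miR-224 arrays lay below all others, while the miR-452 arrays overlapped the untransfected arrays. The change with miR-224 was −0.67 ± 0.08 against scrambled (adjusted p = 0.000399, at most 0.00637 without any 1 array) and −0.32 against untransfected cells (adjusted p = 0.0309, and 0.101 to 0.297 without either untransfected array or miR-224 array b). The change with miR-452 was −0.36 ± 0.08 against scrambled (adjusted p = 0.0266, and 0.0691 to 0.141 without either scrambled or either miR-452 array), and −0.01 against untransfected cells. In DU145 PFKFB4 stood at 6.91 and 6.85 with miR-224, 6.45 and 6.61 with miR-452, 6.99 with the scrambled mimic, and 7.01 and 7.12 in untransfected cells, and it fell there only with miR-452 against untransfected cells, by 0.54 (adjusted p = 0.00586, and 0.0669 without untransfected array c).

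**Figure D2:**
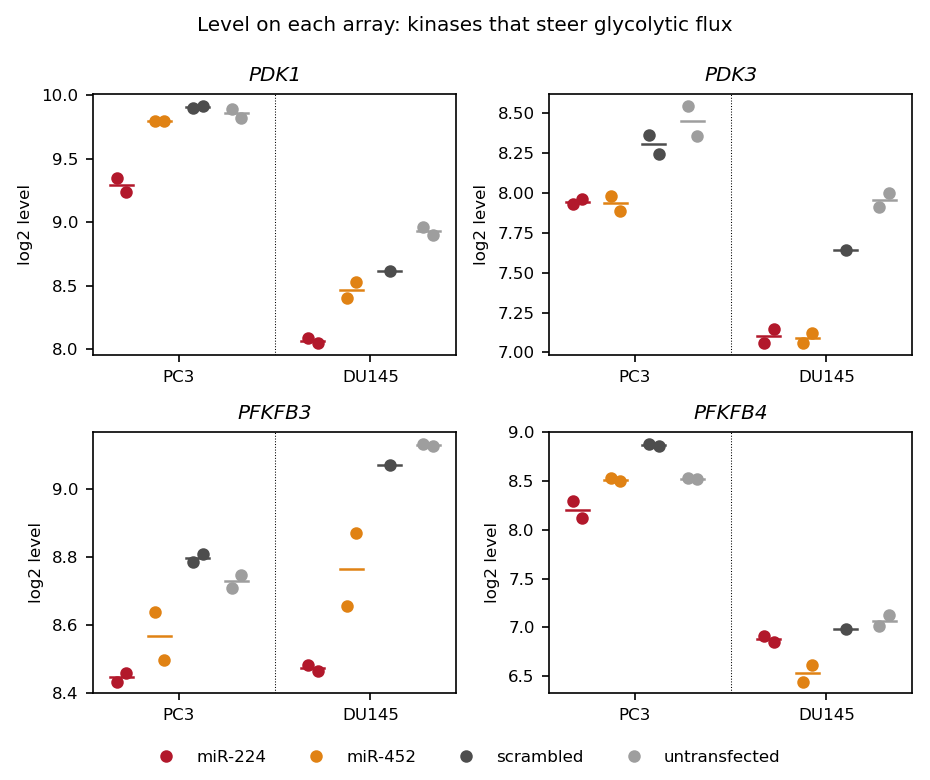
Log2 level of the 4 flux-steering kinases on each of the 15 arrays, with a short line at each group mean, PC3 left and DU145 right of the dotted line. The miR-224 points of PDK1 and PFKFB3 lie lowest in both lines, the points of both mimics lie below both controls for PDK3, and for PFKFB4 the lowest group is miR-224 in PC3 and miR-452 in DU145.

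Of the oxygen-sensing genes, EPAS1 was the one with the widest range in PC3. In PC3 EPAS1 stood at 9.31 and 9.34 with miR-224, 10.16 and 10.01 with miR-452, 10.15 and 10.09 with the scrambled mimic, and 9.63 and 9.63 in untransfected cells. The miR-224 arrays lay below the untransfected arrays, and the miR-452 and scrambled arrays overlapped each other above them. The change with miR-224 was −0.80 ± 0.08 against scrambled (adjusted p = 0.000142, at most 0.00168 without any 1 array), or 1.74-fold lower, and −0.31 against untransfected cells (adjusted p = 0.0343, and 0.111 to 0.164 without either untransfected or either miR-224 array). Against untransfected cells EPAS1 rose by 0.45 with miR-452 (adjusted p = 0.00351, kept without any 1 array) and by 0.49 with the scrambled mimic (adjusted p = 0.00509, and 0.0742 without untransfected array b). In DU145 EPAS1 stood at 8.97 and 8.91 with miR-224, 9.17 and 9.35 with miR-452, 9.08 with the scrambled mimic, and 9.28 and 9.25 in untransfected cells. There it fell with miR-224 against untransfected cells by 0.33 (adjusted p = 0.0350, and 0.0909 to 0.210 without either untransfected or either miR-224 array).

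HIF1A, the other HIF alpha subunit, passed in 2 comparisons, both in DU145. In PC3 HIF1A stood at 12.14 and 11.97 with miR-224, 11.83 and 11.85 with miR-452, 11.77 and 11.92 with the scrambled mimic, and 12.13 and 11.98 in untransfected cells. The miR-224 and untransfected arrays lay above all miR-452 and scrambled arrays, but no PC3 comparison passed. In DU145 HIF1A stood at 11.35 and 11.21 with miR-224, 10.72 and 10.98 with miR-452, 10.91 with the scrambled mimic, and 11.33 and 11.33 in untransfected cells. The same arrangement held there, with the miR-224 and untransfected arrays above the miR-452 and scrambled arrays. HIF1A fell with miR-452 against untransfected DU145 cells by 0.48 (adjusted p = 0.0124, and 0.0829 to 0.0835 without either untransfected array). The message level says nothing of HIF protein, which is set mainly by its breakdown. Of the prolyl hydroxylases that mark HIF for this breakdown, EGLN1 passed in no main fit, but fell with miR-224 against scrambled in PC3 after quantile normalization. EGLN3 rose only with miR-452 against untransfected PC3 cells, by 0.30 (adjusted p = 0.0445), a call lost without any of 5 of the 8 arrays.

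BNIP3, a mitochondrial receptor for mitophagy and a classical hypoxia-induced gene, fell with miR-452 but not with miR-224. In PC3 BNIP3 stood at 11.40 and 11.45 with miR-224, 11.04 and 11.07 with miR-452, 11.60 and 11.63 with the scrambled mimic, and 11.28 and 11.25 in untransfected cells. The 4 groups did not overlap, with the scrambled arrays highest and the miR-452 arrays lowest. The change with miR-452 was −0.56 ± 0.07 against scrambled (adjusted p = 0.00107, at most 0.0135 without any 1 array) and −0.21 against untransfected cells, which did not pass. In DU145 BNIP3 stood at 11.13 and 11.04 with miR-224, 10.46 and 10.60 with miR-452, 11.00 with the scrambled mimic, and 11.00 and 11.04 in untransfected cells. The miR-452 arrays were the lowest there too, and BNIP3 fell by 0.49 against untransfected cells (adjusted p = 0.00671, and 0.0585 to 0.0691 without either untransfected array). Its relative BNIP3L fell with miR-452 against untransfected DU145 cells by 0.32 (adjusted p = 0.0215, and 0.132 to 0.168 without either untransfected array) and passed nowhere else.

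Among the other hypoxia-induced genes, NDRG1, a differentiation- and stress-related gene, rose with the scrambled mimic in PC3. In PC3 NDRG1 stood at 11.26 and 11.14 with miR-224, 11.45 and 11.43 with miR-452, 11.61 and 11.49 with the scrambled mimic, and 11.03 and 11.07 in untransfected cells. The miR-224 arrays lay between the scrambled and the untransfected arrays. With miR-224 NDRG1 fell by 0.35 against scrambled (adjusted p = 0.0123, and 0.0650 to 0.147 without scrambled array b or miR-224 array b), while its change against untransfected cells was 0.15 and did not pass. The histone demethylase KDM3A fell in DU145 against untransfected cells by 0.31 with miR-224 and by 0.56 with miR-452, the second kept without any 1 array and the first lost without any untransfected or miR-224 array (adjusted p up to 0.203). The sterol regulator INSIG2 fell there with miR-224 by 0.59 (adjusted p = 0.00536, and 0.0679 without untransfected array b). The collagen prolyl hydroxylases P4HA1 and P4HA2 and the carbonic anhydrase CA12 fell there with miR-452 by 0.53, 0.49 and 0.34, and these 3 calls were lost without either untransfected array (adjusted p up to 0.163). The secreted factors VEGFA and ADM (adrenomedullin) passed in no main fit. After quantile normalization both rose with miR-452 against untransfected PC3 cells, and ADM fell with miR-224 against scrambled in PC3.

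**Figure D3:**
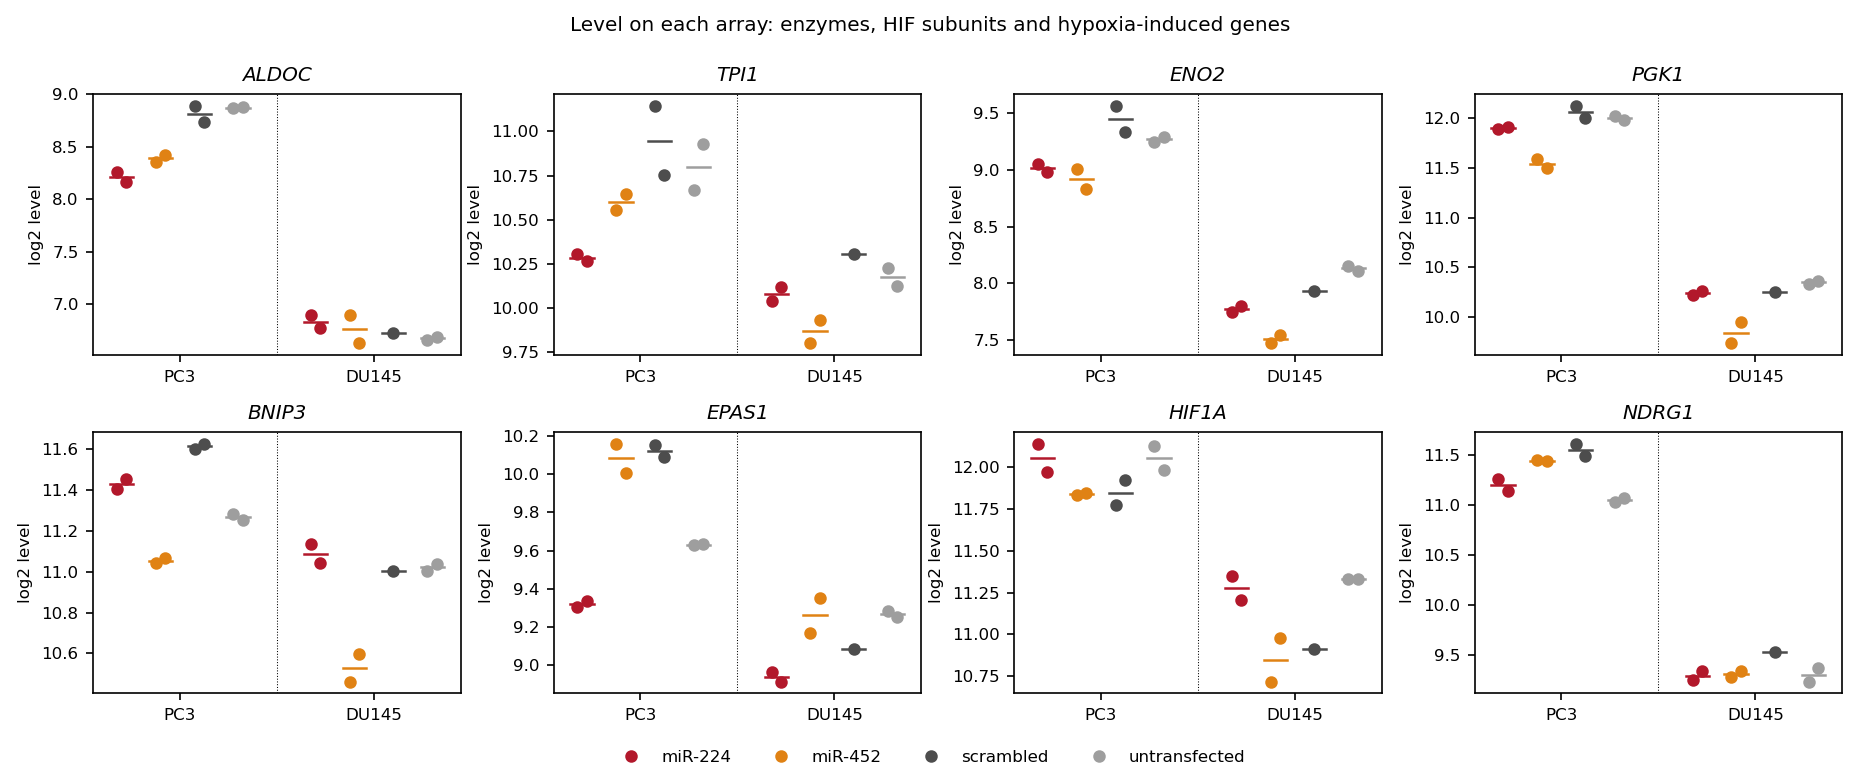
Log2 level on each of the 15 arrays of 3 glycolytic enzymes (ALDOC, TPI1 and ENO2), PGK1, BNIP3, the HIF alpha subunits EPAS1 and HIF1A, and NDRG1, with a short line at each group mean. For BNIP3 and PGK1 the miR-452 points are lowest in both lines, and for EPAS1 and NDRG1 in PC3 the scrambled points lie above the untransfected points.

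The mimics were compared with each other directly. The log2 change of this comparison leaves out both controls, but its p-values use the spread within all groups of the line. In PC3, 4 of the 37 genes stood higher with miR-224 than with miR-452 and 3 lower, where 12.5% of all genes were higher and 5.99% lower. In DU145, 4 were higher and 1 lower, where 3.53% of all genes were higher and 2.38% lower. The median of the 37 was −0.03 in PC3, against −0.02 over all genes, and 0.095 in DU145, against 0.01 over all genes. BNIP3 and PGK1 were higher, and PDK1 lower, with miR-224 in both lines.

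BNIP3 was higher with miR-224 than with miR-452 by 0.38 ± 0.07 in PC3 (adjusted p = 0.00436) and by 0.56 ± 0.09 in DU145 (adjusted p = 0.00744). These calls were lost without PC3 miR-224 array b (adjusted p = 0.0547) and without DU145 miR-224 array a (adjusted p = 0.0646). PGK1 was higher by 0.36 ± 0.08 in PC3 (adjusted p = 0.00897) and by 0.40 ± 0.10 in DU145 (adjusted p = 0.0412), and was lost in PC3 without miR-224 array b or miR-452 array c (adjusted p = 0.0755 and 0.0820) and in DU145 without any of 5 arrays (adjusted p up to 0.244). PDK1 was lower by a change of −0.51 ± 0.08 in PC3 (adjusted p = 0.000961, at most 0.0172 without any 1 array) and −0.40 ± 0.09 in DU145 (adjusted p = 0.0294, and 0.0799 to 0.207 without either untransfected or either miR-224 array).

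In PC3 alone, EPAS1 was lower with miR-224 by a change of −0.76 and PFKFB4 by −0.31, while PFKM, the muscle phosphofructokinase, was higher by 0.42 and hexokinase 2 (HK2) by 0.36. The EPAS1 call was kept without any 1 array, and the other 3 were each lost without at least 2 arrays, miR-224 array b among them (adjusted p up to 0.350). In DU145 alone, the liver phosphofructokinase PFKL was higher with miR-224 by 0.51 and HIF1A by 0.43. PFKL was lost without either miR-224 array (adjusted p = 0.0501 and 0.154), and HIF1A without any of 5 arrays. Whether these line-specific calls differ between the lines was not tested for this pair of mimics.

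**Figure D4:**
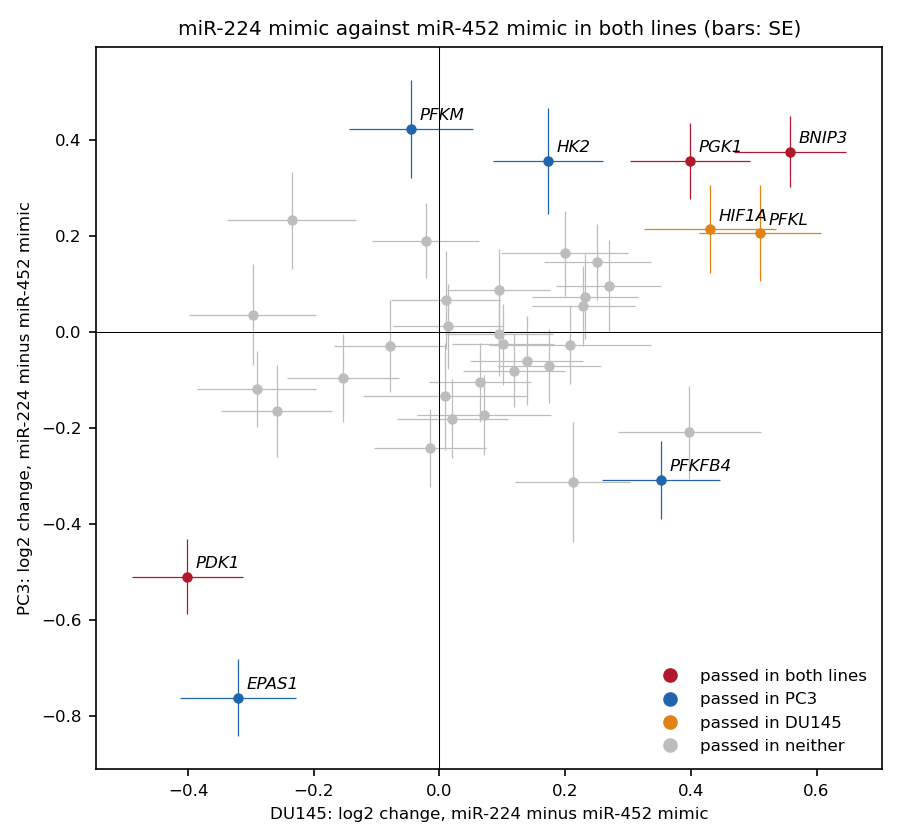
Each point is 1 of the 37 genes, placed by its log2 change with the miR-224 mimic minus the miR-452 mimic in DU145 (horizontal) and PC3 (vertical), with bars of 1 SE from limma. BNIP3 and PGK1 passed in both lines at the upper right, PDK1 in both at the lower left, and EPAS1 lies lowest on the PC3 axis.

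The difference between the lines in the miR-224 change against scrambled was tested over all 15 arrays. Of the 37 genes, 2 passed, both with the more negative change in PC3 (0.245% of all genes passed with a lower and 0.909% with a higher change in PC3). ALDOC changed by −0.60 in PC3 and by 0.11 in DU145, a PC3 minus DU145 difference of −0.71 ± 0.15 (adjusted p = 0.0366). EPAS1 changed by −0.80 in PC3 and by −0.14 in DU145, a difference of −0.66 ± 0.13 (adjusted p = 0.0280). Both calls depended on single arrays: ALDOC was lost without any of 10 of the 14 arrays that can be left out (adjusted p up to 0.168), and EPAS1 without any of 8 (adjusted p up to 0.103). With untransfected cells as the control, the ALDOC difference was −0.82 (adjusted p = 0.00567) and the EPAS1 difference was 0.0185 (adjusted p = 0.949). The kinases that fell in both lines, PDK1, PDK3 and PFKFB3, did not pass for a difference between the lines against either control.

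For the miR-452 change against scrambled, none of the 37 passed for a difference between the lines by limma, where 0.473% of all genes passed with a higher and 0.147% with a lower change in PC3. At an unadjusted p under 0.05, 1 of the 37 was higher and 3 were lower, with no share of all genes counted. With untransfected cells as the control, an alternative added after the data were seen, 4 passed: ALDOC (−0.57), CA12 (0.45), EPAS1 (0.46) and PFKFB4 (0.53). With that control the calls over all genes were also more frequent, with 2.2% higher and 0.68% lower in PC3.

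Further genes of the same pathways were counted against the scrambled mimic, from lists of 88 genes of which 79 were measured. These counts are small, and over all genes 12.1% rose and 4.65% fell with miR-224 in PC3, 2.89% rose and 2.33% fell with miR-452 in PC3, 0.631% rose and 1.31% fell with miR-224 in DU145, and 0.577% rose and 1.52% fell with miR-452 in DU145. Of 12 HIF partners and oxygen-sensing genes, 1 rose with miR-224 in PC3, VHL, the ubiquitin ligase subunit that recognises hydroxylated HIF alpha (0.56, adjusted p = 0.00729). With miR-452 in PC3 3 fell: ELOB (elongin B), a partner of VHL (−0.55), CITED2, which competes with HIF for a coactivator (−0.49), and ARNT, the HIF beta subunit (−0.36). In DU145 none passed with miR-224, and ELOB fell with miR-452 (−0.74, adjusted p = 0.0123). The DU145 ELOB call was kept without any 1 array that can be left out, and the PC3 calls were each lost without scrambled array b or scrambled array c.

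Of 19 further hypoxia-induced genes, 2 rose and 1 fell with miR-224 in PC3, near the shares over all genes. BHLHE40, a transcriptional repressor, stood at 11.06 and 11.15 with miR-224 and at 10.52 and 10.46 with the scrambled mimic, a rise of 0.61 ± 0.08 (adjusted p = 0.000445, kept without any 1 array). TFRC, the transferrin receptor, rose by 0.41 (0.18 against untransfected cells), and HILPDA, a lipid droplet protein, fell by 0.42, both lost without miR-224 array b. With miR-452 in PC3 2 rose and 2 fell, with heme oxygenase HMOX1 higher by 0.77 (adjusted p = 0.000476, kept without any 1 array) and HILPDA and MXI1, a MYC antagonist, lower, both lost without scrambled array b or miR-452 array c. In DU145, miR-224 gave 2 rises (HMOX1 by 0.80 and WSB1 by 0.54) and 1 fall, of lysyl oxidase LOX (−1.004 ± 0.12, adjusted p = 0.00504), and miR-452 gave 1 fall, LOX again (−0.61, and −0.16 against untransfected cells). The HMOX1 call was lost without either miR-224 array, and the miR-452 LOX call without either untransfected array or miR-452 array a. WSB1 changed by −0.09 against untransfected cells, opposite in sign, and its call was lost without either untransfected or either miR-224 array. The list held genes that moved in both directions in PC3.

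Of 28 further glycolysis, pyruvate and glycogen genes, 6 rose and 1 fell with miR-224 in PC3. Another pyruvate dehydrogenase kinase, PDK4, rose while PDK1 and PDK3 fell: it stood at 7.32 and 7.31 with miR-224 and at 6.78 and 6.68 with the scrambled mimic, a change of 0.58 ± 0.08 (adjusted p = 0.000771), and 0.49 against untransfected cells (adjusted p = 0.00346). BPGM, which makes 2,3-bisphosphoglycerate, rose by 0.50, and BSG (basigin), a chaperone of lactate transporters, rose by 0.54 against scrambled but changed by −0.03 against untransfected cells. With miR-452, BSG alone rose in PC3 (0.40, and −0.18 against untransfected cells; lost without miR-452 array b), and PDK2 alone fell in DU145 (−0.58, adjusted p = 0.0468), a call lost without any of 5 arrays. With miR-224 in DU145 none of the 28 passed. Of 6 pentose phosphate genes, PGD and RPE rose with miR-224 in PC3 (0.41 and 0.32) and PGLS fell with miR-452 in DU145 (−0.66, lost without either untransfected array). Against untransfected cells PGD changed by 0.17 and RPE by −0.18 (turned in sign), and their calls were lost without 2 and 4 arrays. Of 14 citrate cycle genes, SUCLG1 alone passed, higher with miR-452 in PC3 (0.38, adjusted p = 0.0476), with 0.13 against untransfected cells and the call lost without any of 6 arrays.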

How the data were processed

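Each of 15 total RNA samples was hybridised to an Affymetrix Human Gene 1.0 ST array. The deposited values are log2 levels. Per the labels, the authors ran RMA16 in GeneSpring GX 11.0 and handled PC3 and DU145 arrays apart. The meaning of the 16, the genome build and the probe set definition were not given in the sources used here. The table held 28869 features, of which 19310 carried 1 symbol, and features of 1 symbol were averaged into 18377 genes, with symbols brought up to date through Entrez numbers in the RefSeq table. No filter on level was applied. Precision is limited by how few arrays there are: the residual degrees of freedom were 4 for PC3, 3 for DU145 and 7 for both lines together.

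Group means were fitted with limma 3.58.1 in R 4.3.3 (lmFit and eBayes, two-sided), with 1 fit per line and 1 fit of all 15 arrays for differences between lines. The spread of the single DU145 scrambled array was assumed to match the remaining DU145 groups. Adjusted p-values are Benjamini-Hochberg values over all genes of a comparison, and the script was tested on simulated data. All measured members are counted. Members that passed against the scrambled mimic, or between scrambled and untransfected, are given on every array, with HIF1A and EPAS1 always, and up to 3 genes of each further list with the smallest p are named. DU145 values of these genes and the members set in the plots were chosen after their values were seen. Members, lists and promoters were chosen with earlier results of these data known. Alternatives were quantile normalization, a filter at percentile 20 of level, 1 feature per gene, trend and robust moderation, 1 fit of all arrays, a replicate block, other controls and leaving out each array.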

Additional observations from a re-analysis of the deposited data

Results flagged for a closer look

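ALDOC and EPAS1 differed between the lines in their change with the miR-224 mimic against the scrambled mimic, by a test of the difference itself. Both calls depended on single arrays: ALDOC was lost without any of 10 of 14 arrays and EPAS1 without any of 8. ALDOC lay at 6.62 to 6.89 in DU145, near the medians of those arrays over all features (6.51 to 6.67), and at 8.17 to 8.89 in PC3. The ALDOC change against the scrambled mimic was −0.60 in PC3 and 0.11 in DU145, a PC3 minus DU145 difference of −0.71 (adjusted p = 0.0366). The EPAS1 change was −0.80 in PC3 and −0.14 in DU145, a difference of −0.66 (adjusted p = 0.0280). With untransfected cells as the control the ALDOC difference was −0.82 (adjusted p = 0.00567), and the EPAS1 difference was 0.0185 (adjusted p = 0.949). Both differences against the scrambled mimic use the single DU145 scrambled array, and those against untransfected cells do not.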

How the results depend on the processing

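Of 83 calls of single genes, 21 were kept without each array in turn. Leaving out 1 array changed the number of calls over all genes as well, and those shares are not given beside the counts below. The counts are therefore not particular to the 37 genes. The number of the 37 that passed changed as follows. In PC3, miR-224 against scrambled gave 5 to 10 (9 with all arrays; 5 without miR-224 b), miR-452 against scrambled 2 to 8 (7 with all arrays; 2 without scrambled b, 4 without miR-452 b and 3 without miR-452 c), miR-224 against untransfected 2 to 7 (7 with all arrays; 2 and 3 without untransfected b and c, 4 and 3 without miR-224 a and b), miR-452 against untransfected 4 to 11 (9 with all arrays; 4 without untransfected b and 5 without miR-452 c), scrambled against untransfected 0 to 5 (4 with all arrays; 0 without untransfected b and 2 without scrambled c), and miR-224 against miR-452 2 to 9 (7 with all arrays; 2 without miR-224 b and 3 without miR-452 c). In DU145, miR-224 against scrambled gave 0 to 4 (3 with all arrays) and miR-452 against scrambled 0 to 8 (1 with all arrays; 8 without miR-452 c), both 0 without any untransfected or miR-224 array. There miR-224 against untransfected gave 3 to 15 (10 with all arrays; 3 and 4 without untransfected b and c, 5 and 4 without miR-224 a and c), miR-452 against untransfected 4 to 23 (19 with all arrays; 4 without either untransfected array and 11 without miR-452 a), scrambled against untransfected 0 to 7 (0 with all arrays; 7 without either miR-452 array), and miR-224 against miR-452 0 to 10 (5 with all arrays; 10 without miR-452 c, 0 without miR-224 a, 1 without its array c, and 2 without each untransfected array). The difference between the lines gave 0 to 3 for miR-224 (2 with all arrays; 0 without any PC3 scrambled or miR-224 array or any DU145 untransfected or miR-224 array, 1 without either PC3 miR-452 array) and 0 to 1 for miR-452 (1 without DU145 miR-452 c). The single DU145 scrambled array cannot be left out of its comparisons.

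Quantile normalization gave 17 for PC3 miR-224 against scrambled, 9 for PC3 scrambled against untransfected, 3 for DU145 miR-452 against scrambled and 8 for DU145 miR-452 against untransfected; 60 of the 83 calls passed, 23 did not and none reversed. All 15 arrays in 1 fit gave 7 for PC3 scrambled against untransfected, and in DU145 5 for miR-452 against scrambled, 5 for scrambled against untransfected and 9 for miR-224 against miR-452. Trend and robust moderation gave 14 for PC3 miR-452 against untransfected, and in DU145 5, 2 and 9 for those 3 comparisons. Leaving out genes under percentile 20 of level gave 7 for PC3 scrambled against untransfected, 2 for DU145 miR-452 against scrambled and 1 for DU145 scrambled against untransfected, and kept all 83 calls, as did taking the highest feature of a gene. With untransfected cells as the control (for line differences, chosen after seeing the data), 1 gene passed for the line difference with miR-224 and 4 with miR-452, and 2 calls reversed: NDRG1 with miR-224 in PC3 (0.15) and the EPAS1 line difference (0.0185). The mean of both controls kept 18 of 20 calls. Calls over all genes changed under these settings too. After quantile normalization, 8.1% of all genes fell and 10.7% rose with miR-224 against scrambled in PC3. In the main fit 4.65% fell and 12.1% rose. The causes were not tested.

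The replicate letters are not said to mark shared cultures. Deviations of same-letter arrays from their group means correlated at −0.31 to 0.27. With 2 arrays in a group these deviations are equal and opposite, so the correlations cannot decide whether arrays of a letter share a culture. With the replicate block, which takes up residual degrees of freedom, the counts were 3 for PC3 miR-224 against untransfected, 4 for PC3 miR-224 against miR-452, in DU145 0 and 0 for miR-224 and miR-452 against scrambled, 2 and 1 against untransfected and 2 for miR-224 against miR-452, and 0 for the line difference with miR-224. Of the 83 calls, 40 passed under the block. With miR-224 against untransfected PC3 cells, 3.29% of all genes fell and 1.23% rose under the block. Without the block 6.85% fell and 2.84% rose.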
